A study of Bos taurus with 20 samples.

Results

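Cumulus cells (CC) matured in vitro for 4 h (in vitro maturation, IVM) were set against mural granulosa cells (GC) of the bovine ovary, and each difference was split by whether it was already there in immature CC. The arrays were chosen by their titles, 4 of CC after IVM and 4 of GC, which makes 8 of the 20 arrays of the series. The 4 arrays of immature CC served for the split, and 4 arrays each of theca cells (TH) and oocytes for reference. All 22550 genes or transcripts of the array were compared. The cells came from bovine ovaries collected after slaughter, from antral follicles of 3 to 6 mm. GC and cumulus-oocyte complexes were separated after puncture of the follicles, and TH was scraped from the follicle wall. GC and immature CC, both labelled immature, were taken without culture as far as the labels say. For the matured group, CC were detached and washed after the 4 h of IVM, and the medium and hormones used are not given in the sources used here. No allele or agent is named for any group. RNA was treated with DNase, and 200 ng of total RNA was labelled with Cy3 for a 1-colour custom Agilent array. The 4 arrays each of TH, GC, CC, and oocytes are biological replicates by the study's methods. Of CC after IVM the labels say only that the 4 arrays are replicates, so the spread within that group may be technical.

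Mural GC line the wall of the antral follicle, whereas CC surround the oocyte and are joined to it by gap junctions. After the ovulatory luteinizing hormone surge, or in culture once the complex has left the follicle, EGF-like growth factors act on the EGF receptor of CC, and CC then lay down a matrix of hyaluronan that spreads the cumulus. Mural GC carry the receptor for FSH, convert androgens to oestradiol, and change towards luteal cells after the surge.

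The probes of the 4 genes proposed as markers of the comparison, and of 2 genes whose probes disagreed, are given first because several results turn on which probe was read. Each probe has 60 bases, of which the first 30 are shown 5' to 3', as in the files, with gene positions in the UMD 3.1 (bosTau6) annotation of the file headers. Capitals mark the stretch that both CYP19A1 probes share among the bases shown (49 bases over their full length).
HAS2 (chr14:19703611-19733798), first probe: ccaaaggaaattttacaggccgttggctgt
HAS2, second probe: cccaaaatgtgaagcttggttgacgttgtt
PLK2 (chr20:20854607-20860584), first probe: ggctggaaaagtgcattccttgttaataaa
PLK2, second probe: gctataattggagcagcttttggctgctta
FSHR, ENSBTAT00000045992 (chr11:31129534-31305140), first probe: gtgtggcggagcagaaattctattaatgat
FSHR, ENSBTAT00000045992, second probe: tatggataagaaaggcaaggccatgggact
FSHR, ENSBTAT00000056513 (chr11:31110744-31305197), first probe: aatatgccatggaagagctgacagagcact
FSHR, ENSBTAT00000056513, second probe: ggcacatccataaggtaaattggtcagaaa
CYP19A1 (chr10:59227895-59282939), first probe: ATAAGGTAATCTGGTCCTCAAACCCAGCCC
CYP19A1, second probe: aatgcatatagATAAGGTAATCTGGTCCTC
CREM (chr13:18496784-18563503), first probe: tatgtcaagtgtctggagagtcgagtcgcg
CREM, second probe: tctaacccaggatctgatggtgttcaggga
PDE4B, ENSBTAT00000054382 (chr3:79284893-79304824), first probe: gggtttctatgtctatgaacactgcttatt
PDE4B, ENSBTAT00000054382, second probe: tgtttccaatttaatgctgccgtctttctc

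Each value is the log2 processed intensity of a gene (the median of its spots) after subtraction of the array's 75th percentile, and a difference of 1 on this scale is a 2-fold difference. GC and immature CC had replicates 1 and 2 on slide 1 and replicates 3 and 4 on slide 2, whereas the 4 arrays of CC after IVM were alone on slide 3. The slide and the matured group therefore cannot be told apart in any comparison of CC after IVM. These 4 arrays were also the dimmest, with a 75th percentile of intensity of 284 to 396 against 368 to 576 in GC and 536 to 657 in CC. The share of the 61325 probes marked well above background was 54.2 to 58.3% on them, 56.7 to 60% in GC, and 58.9 to 62.8% in CC. The median difference of all genes between CC after IVM and GC was 0.20. It was 0.03 among the 11629 genes that every one of the 12 arrays measured above background. List medians are to be read against 0.20, and against 0.03 where nearly all members were above background. Dim genes depended on the background correction. Of 134 called differences from GC among the named and marker genes, 60 were smaller by over 1.5 times on the log2 scale with normexp and 46 with the deposited table. The group RNA was from bulk cells, in which fewer cells of a type and less RNA per cell cannot be told apart.

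In CC after IVM, 3301 genes were higher than in GC (14.6% of those tested) and 3136 were lower (13.9%), in limma with Benjamini–Hochberg adjustment over all genes and a threshold of 0.05. These are the shares against which the counts of each gene list are to be read. Before IVM the difference was smaller in number, with 858 genes higher in CC than in GC (3.8%) and 665 lower (2.95%). Between CC after IVM and immature CC, 7144 genes were higher (31.7%) and 3653 lower (16.2%). The comparison of CC after IVM with GC shares its arrays with both of the others, so they are given side by side and no overlap among them is offered as evidence. With the percentile taken over probes above background on every array, 2332 genes were higher than in GC and 4042 lower (36.6% of the calls higher, against 51.3%), and with normexp background correction 6535 were higher and 2509 lower (72.3%). For CC after IVM against immature CC the split was 66.2% higher, and it was 43.4% with quantile normalization (2930 and 3821), 48.8% with dim genes left out (3440 and 3614), and 83.5% with normexp (14475 and 2854).

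Most genes called between matured CC and GC were also called in the same direction between matured and immature CC, and such calls are named as with maturation. Both comparisons use the same 4 matured arrays, alone on slide 3, so these counts do not separate maturation from the slide or from a shift of those arrays. Of the 3301 higher genes, 2699 (81.8%) were also higher than in immature CC (12% of all genes met both), 361 were already higher in immature CC (1.6%), 105 of them were both, and 346 (10.5%) were neither. Of the 3136 lower genes, 2431 (77.5%) were also lower than in immature CC (10.8% of all genes), 351 were already lower in immature CC (1.56%), 93 were both, and 447 (14.3%) were neither. The 361 genes had a median difference of 1.79, against 1.28 for the 2699. The 361 had to pass the comparison of CC with GC, where 858 genes were called higher. Between matured and immature CC it was 7144. Fewer calls mean a stricter cut on the p-value, which keeps larger differences, so these medians do not rank the sets. A further 329 genes were higher in immature CC than in GC and lower after IVM than before, with no call left against GC, and 189 did the reverse. In 104 genes CC were higher than GC before IVM and lower after it, and in 42 genes lower before and higher after. Of the higher genes 83.8% were above background on at least 3 arrays of CC after IVM, and of the lower genes 97.9% were on at least 3 arrays of GC. Of the 3687 genes above background on none of the 12 arrays, 249 were nevertheless called higher, and these have no measured level.

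HAS2, the synthase that makes the hyaluronan of the expanding cumulus, was 1 of the 4 proposed markers. It was at -7.49, -7.38, -7.23, and -7.13 on the GC arrays, at -5.13, -6.31, -4.79, and -6.02 on the CC arrays, and at 2.59, 1.5, 1.94, and 2.77 after IVM. The 3 groups did not overlap, and the gene was above background on 1 GC array, 2 CC arrays, and all 4 matured arrays. The difference between CC after IVM and GC was 9.51 (95% CI 8.74 to 10.27, adjusted p = 1.5e-08), of which 1.75 was there before IVM (adjusted p = 0.0102), at levels near background. Its probes gave 9.20 and 9.39. On 3 of the 4 GC arrays it was at background. On the other array the first probe alone was above it, as the second was above background on 0 GC arrays. The 9.51 and its interval therefore rest on GC values near the floor. The size moved with the background correction, to 5.12 with normexp and 5.82 with the deposited table, below the 7.16 and 7.48 of PLK2 there. PLK2, a Polo-like kinase that is induced by mitogens and stress, was at -4.92, -2.88, -3.26, and -4.77 in GC and at 4.93, 5.26, 4.65, and 5.22 after IVM. Its CC values of -2.70, -3.35, -2.95, and -3.22 overlapped the GC range, and the difference of 0.90 before IVM did not pass the test (adjusted p = 0.211). After IVM it was 8.97 above GC (95% CI 8.09 to 9.86, adjusted p = 2.7e-08).

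By the median of their spots, the other markers, FSHR and CYP19A1, separated the groups poorly. FSHR, the receptor for FSH, was at 2.47, 1.5, 2.39, and 2.15 in GC, 2.42, 2.04, 2.38, and 2.35 in CC, and 2.07, -0.12, 1.10, and 1.12 after IVM, and the matured arrays overlapped both other groups. The gene was lower after IVM than in GC by 1.08 on the log2 scale (difference -1.08, 95% CI -1.89 to -0.27, adjusted p = 0.0465), a call that was lost in 17 alternative settings. Among these was the omission of any CC array, of GC replicate 1, 3, or 4, or of CC IVM replicate 2, 3, or 4, with differences from -1.11 to -0.69. The probes of the 2 annotated transcripts went apart. Those of ENSBTAT00000056513 differed by -2.30 and -2.12 between matured CC and GC, and those of ENSBTAT00000045992 by 0.30 and 0.48, with all 4 above background on every array. The ENSBTAT00000056513 probes did not overlap, at -1.90 to 1.11 and -1.23 to 1.56 after IVM and 1.17 to 2.35 and 1.66 to 2.71 in GC. Those of ENSBTAT00000045992 did overlap. The brightest probe alone gave 0.48 for the gene. CYP19A1, the aromatase that makes oestradiol, was at -1.19, -1.42, -2.33, and 1.54 in GC and at -1.62, -1.36, 0.10, and -1.12 after IVM. The groups overlapped, and the difference of -0.15 did not pass the test (95% CI -1.61 to 1.32, adjusted p = 0.89). Within GC, replicate 4 alone stood above 0. The CYP19A1 probes were higher in immature CC than in GC by 1.14 and 1.10. Matured CC were lower than immature CC, by -1.62 to -1.03 over the alternative settings. Neither of these differences of the gene was called in the main fit.

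**Figure D1:**
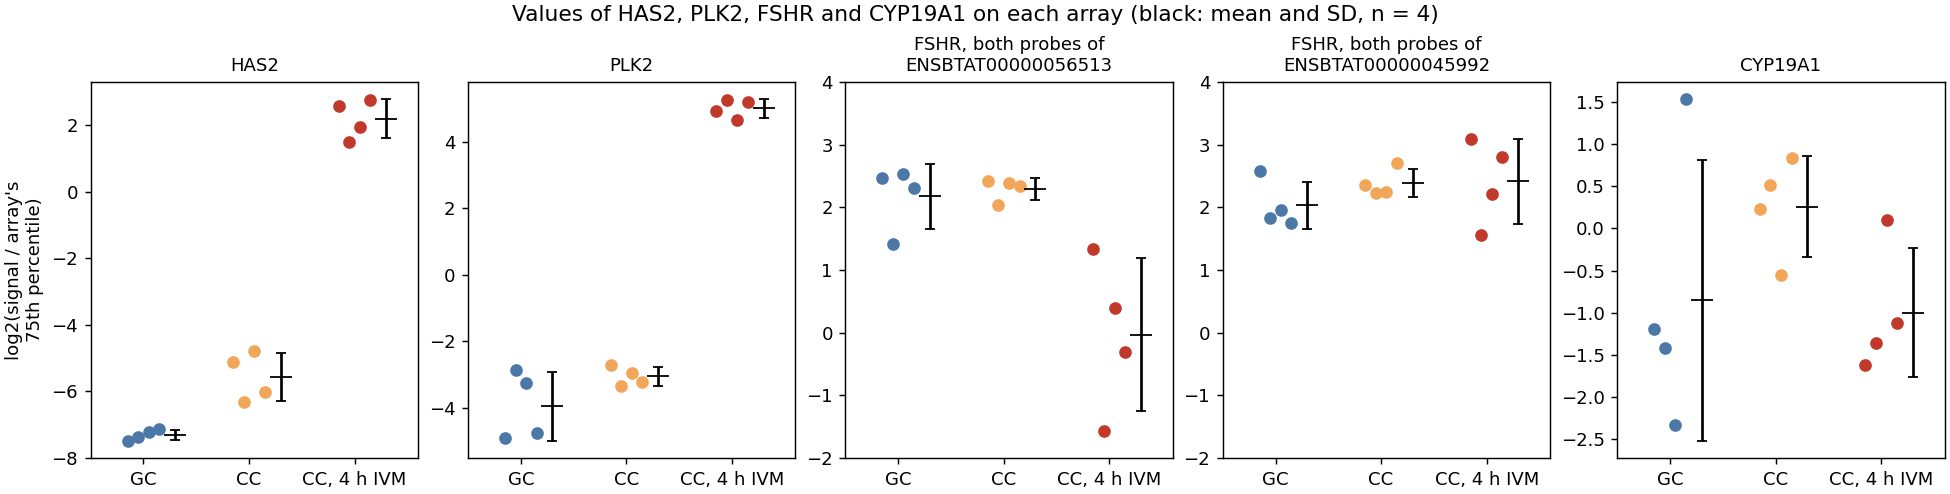
Log2 signal over the 75th percentile of the array (vertical axis) for HAS2, PLK2, the probes of each FSHR transcript, and CYP19A1, with 1 point per array of GC, CC, and CC after IVM and black marks for the mean ± SD (n = 4). HAS2 and PLK2 after IVM lie above every other array, FSHR is lower after IVM for the probes of 1 transcript only, and the CYP19A1 groups overlap.

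Among genes above background on at least 3 arrays of both groups, PLK2 was followed by FGF2, TRIB3, ST14, LRRN3, SERPINA11, AGPAT9, and HS3ST1, all without overlap between matured CC and GC. FGF2, a fibroblast growth factor, was at -3.14, -3.03, -3.01, and -4.69 in GC and at 3.37, 4.87, 4.16, and 4.50 after IVM, a difference of 7.69 (95% CI 6.79 to 8.60, adjusted p = 9.2e-08). Its CC values of -1.40, -2.16, -1.95, and -1.11 were already higher than in GC by 1.81 (adjusted p = 0.02), so the greater share of the gap appeared with IVM. TRIB3, a pseudokinase induced by amino acid and endoplasmic reticulum stress, was at -3.21, -3.43, -3.00, and -2.18 in GC and -3.43, -3.70, -2.87, and -2.97 in CC, which overlapped, and at 3.70, 4.16, 4.58, and 4.52 after IVM. It was higher than GC by 7.19 (adjusted p = 2.3e-08). ST14, the membrane serine protease matriptase, went from -4.91 to -2.56 in GC to 2.71 to 3.98 (7.13), and LRRN3, a leucine-rich repeat protein, from -3.28 to -2.43 to 3.43 to 4.84 (6.95). Neither differed between CC and GC by the test (adjusted p = 0.465 and 0.474).

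AGPAT9, an acyltransferase of the first step of glycerolipid synthesis, had the tightest values of this group. It was at 0.72, 0.92, 0.40, and 1.05 in GC, 2.04, 2.18, 1.93, and 2.14 in CC, and 7.17, 7.79, 7.55, and 8.09 after IVM, so that it was higher than GC by 1.30 before IVM and by 6.88 after it (adjusted p = 0.00362 and 4.4e-09). HS3ST1, a heparan sulfate sulfotransferase, showed the same order of the groups with 2.81 and 6.86. SERPINA11, a serpin, was spread in GC, at -5.97, -5.06, -3.42, and -2.14, and narrower after IVM, at 1.67, 3.69, 2.85, and 2.80 (6.90, adjusted p = 2.7e-05). PSAT1, an enzyme of serine synthesis, was at -4.16 to -0.85 in GC and 2.77 to 4.53 after IVM (5.88). It is 1 of the 6 genes that were farthest above immature CC, together with SERPINA11, PLK2, ST14, TRIB3, and FGFR2. That ranking covered genes higher than GC without overlap and above background on at least 3 arrays of GC and of matured CC, which leaves out HAS2.

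Of the lower genes above background on at least 3 arrays of both groups, PRKAG3, a regulatory subunit of AMP-activated kinase, had the largest difference. It was at 2.07, 2.31, 2.67, and 1.74 in GC, at 1.18, 0.30, 1.11, and 1.14 in CC, and at -3.15, -6.11, -4.28, and -3.67 after IVM, with no overlap of the matured arrays (-6.50, 95% CI -7.60 to -5.41, adjusted p = 1.3e-06). C28H10ORF10 was at 0.65 to 3.46 in GC and -4.66 to -3.96 after IVM (-6.47), and its CC values, at -0.68 to 0.79, were already lower by the test (-2.11). RPRM, a cell-cycle inhibitor, was at 3.47, 3.34, 3.25, and 2.07 in GC, 1.26, 0.87, 1.67, and 1.60 in CC, and -1.32, -1.87, -1.82, and -1.85 after IVM. It was lower than GC by 1.68 before IVM and by 4.75 after (differences -1.68 and -4.75), in ordered groups that did not overlap. SLC40A1, the iron exporter ferroportin, had the same order, with -2.38 before and -4.96 after IVM.

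PNMAL1 was at 0.73, 0.38, 1.05, and 0.56 in GC and at -3.85, -3.99, -3.81, and -4.58 after IVM (-4.74, adjusted p = 2.7e-08), with CC and GC overlapping. MAP3K5, a stress-activated kinase, was at -1.29 to -0.69 in GC and -5.87 to -4.33 after IVM (-4.03), and CCDC8 at 1.52 to 3.07 and -2.18 to -1.08 (-3.77). Neither of these 2 was called between CC and GC. MYH11 and PDLIM3, which are proteins of contractile cells, differed from GC by -5.39 and -5.15 after IVM and by -2.40 and -3.96 before it, and their means in TH, 2.79 and 4.07, were above those in GC, 0.99 and 0.28.

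**Figure D2:**
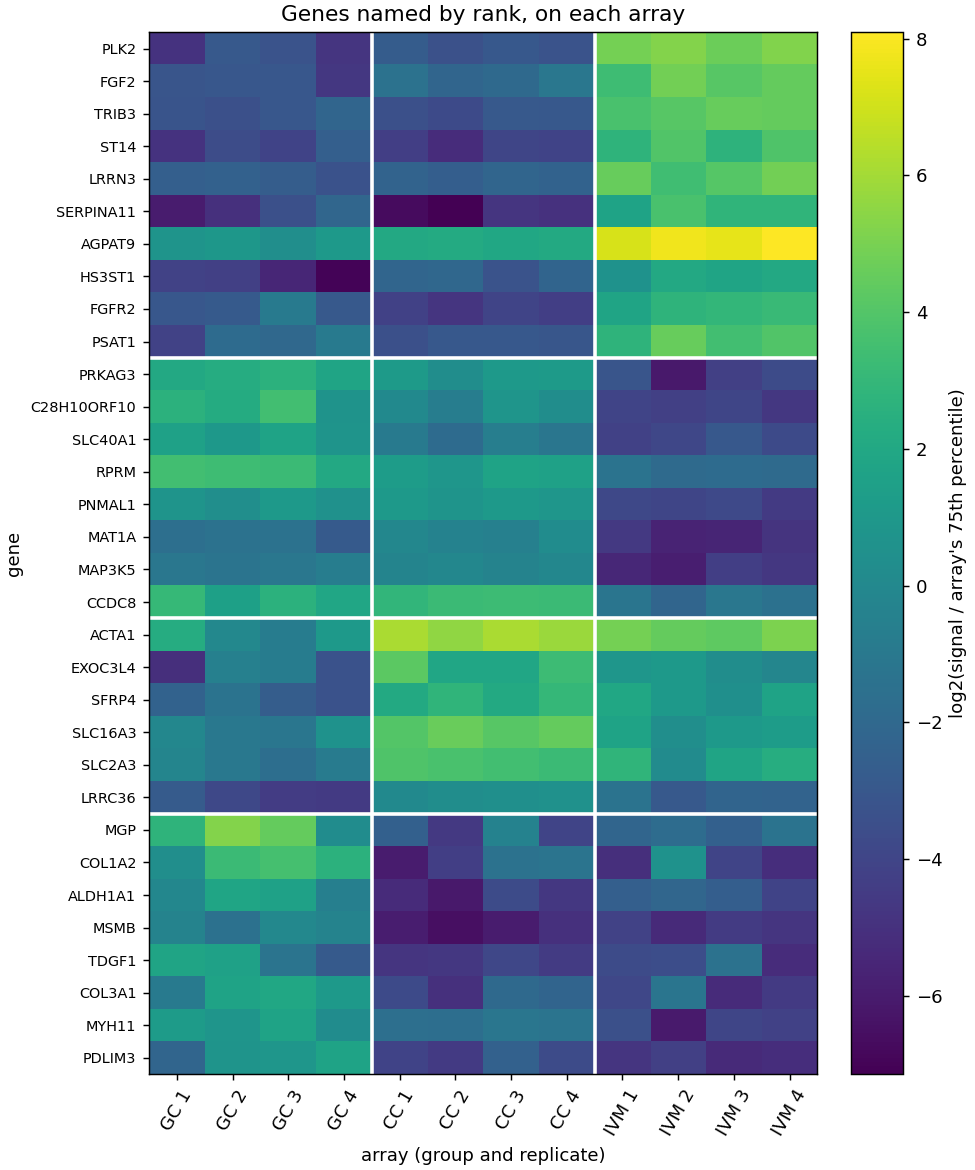
Each row is a gene and each column 1 of the 12 arrays of GC, CC, and CC after IVM, in 4 blocks for genes higher with IVM, lower with IVM, already higher in CC, and already lower in CC. The colour is the log2 value of the gene on that array as labelled on the colour bar, and in the first block the 4 matured arrays stand apart from both other groups.

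Genes that already differed between immature CC and GC had another make-up. ACTA1, a sarcomeric actin, was at 2.28, -0.01, -0.78, and 1.04 in GC, 6.18, 5.55, 6.18, and 5.80 in CC, and 4.93, 4.47, 4.29, and 5.07 after IVM, so it was higher by 5.29 before and by 4.06 after IVM (adjusted p = 8.6e-05 and 5.6e-05). SFRP4, a secreted WNT antagonist, was higher by 4.91 and 3.68. SLC2A3, a glucose transporter, was at -0.20, -1.02, -1.61, and -0.78 in GC, 3.90, 3.71, 3.45, and 3.26 in CC, and 2.85, 0.23, 1.78, and 2.32 after IVM. It was higher than GC by 4.48 before IVM and by 2.70 after (adjusted p = 1.6e-04 and 7.6e-04), and lower after IVM than before (-1.79, adjusted p = 0.00939). SLC16A3, the lactate exporter MCT4, had the steeper return, at -0.07, -1.03, -1.14, and 0.62 in GC, 3.99, 4.61, 4.13, and 4.47 in CC, and 1.68, 0.37, 1.09, and 1.25 after IVM. Its difference from GC was 4.71 before and 1.5 after IVM, when the arrays overlapped. LRRC36 went from 4.24 to 1.71. EXOC3L4 went from 5.22 to 2.94, and the latter call was lost without GC replicate 1 or 4 or CC IVM replicate 1 or 2, at differences of 2.04 to 2.82.

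MGP, a matrix protein of stromal and smooth muscle cells, was at 2.77, 5.29, 4.47, and 0.28 in GC, at -2.50, -4.64, -0.37, and -4.02 in CC, and at -2.16, -1.74, -2.50, and -1.32 after IVM, widely spread in GC but with no overlap between GC and matured CC (-5.13, adjusted p = 0.0021). COL1A2 and COL3A1, which are fibrillar collagens, differed from GC by -5.88 and -4.67 after IVM and by -5.72 and -4.18 before it. COL1A2 was at -5.11, 0.62, -3.99, and -5.15 on the matured arrays, where replicate 2 lay within the GC range. ALDH1A1, which makes retinoic acid, was lower than GC by 3.52 (difference -3.52) and MSMB by 4.14 (-4.14), after 5.63 and 5.32 before IVM (-5.63 and -5.32). TDGF1, a co-receptor of NODAL, differed by -3.24, a call lost without GC replicate 1 or 2 or CC IVM replicate 1 or 4 (-3.18 to -2.59).

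Markers of other cell types were counted by list, and the lists did not share a direction. MGP, COL1A2, COL3A1, and MYH11, named above, are themselves on the theca and stroma list, so its counts are not separate from theirs. Of 13 markers of theca and stroma, 6 were lower in matured CC than in GC, and all 6 were already lower in immature CC, where the shares over all genes were 13.9 and 1.56%. The summed signal of the 13 markers is given in multiples of the 75th percentile of the array. It was 42.9, 165.7, 138.1, and 47.4 on GC replicates 1 to 4, 28.8 to 36.9 in CC, and 28.5 to 36.2 after IVM. The GC median of 92.7 therefore lies between replicates 1 and 4 and the much brighter replicates 2 and 3. The theca enzyme CYP17A1 was above background on 1 GC array and on no CC or matured array. Of the 351 genes that were already lower in CC, 180 (51.3%) had a higher mean in TH than in GC. The share was 33.9% of all genes and 33.0% of those lower with maturation. It was 37.6% of the genes above background on all 12 arrays, and 43.2% of those already higher in CC. The part of theca or stromal RNA in the GC arrays in these differences was not tested.

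**Figure D3:**
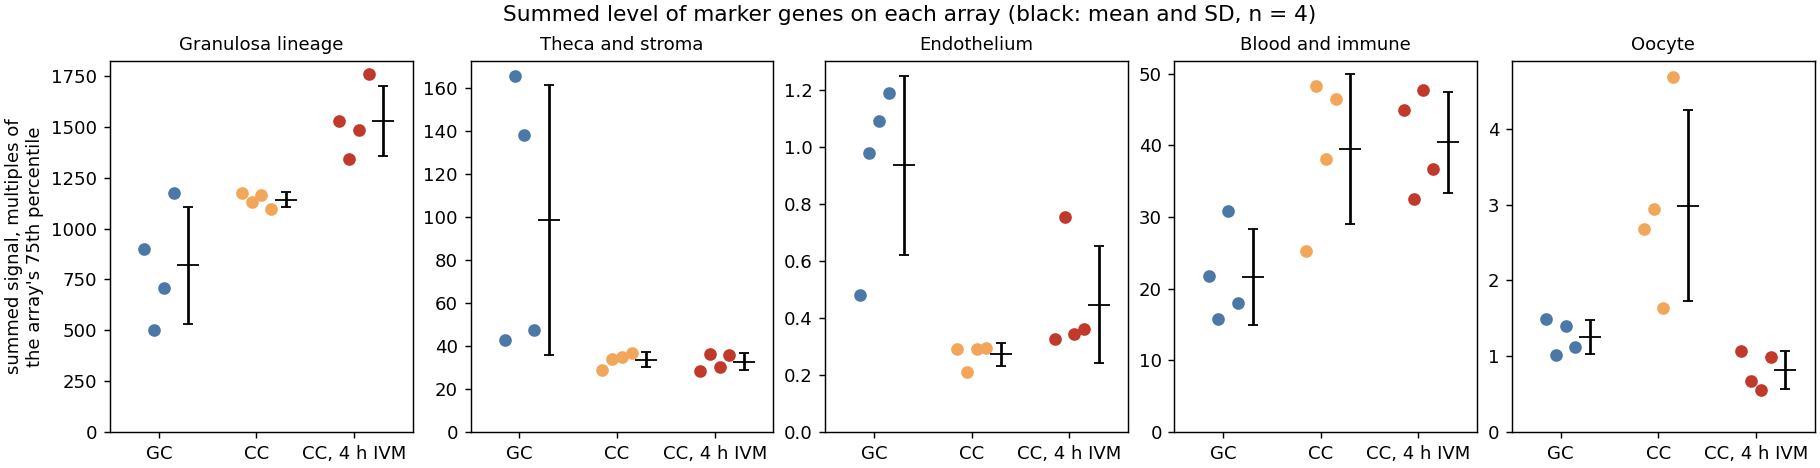
Summed signal of each list of cell type markers, in multiples of the 75th percentile of the array, with 1 point per array of GC, CC, and CC after IVM. The theca and stroma sum is 42.9 to 165.7 in GC and at most 36.9 in the 8 other arrays, and the oocyte sum is highest in immature CC, at 1.64 to 4.69.

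The oocyte markers were at 1.01 to 1.5 in GC, 1.64 to 4.69 in CC, and 0.550 to 1.07 after IVM, and 2 of 10 were lower in matured CC than in GC. The endothelial markers summed to 0.482 to 1.19 in GC and 0.327 to 0.754 after IVM, with CDH5 above background on no array of these groups. The blood and immune markers summed to 15.8 to 30.9 in GC and 32.6 to 47.7 after IVM, and PTPRC was above background on no array of these groups. Of these 10 markers, 2 were higher in matured CC than in GC, the macrophage gene CD68 by 2.49 and the haemoglobin gene HBA by 0.93, the latter not without GC replicate 2 or 4 or CC IVM replicate 1 or 3 (0.79 to 0.88). The granulosa markers summed to 499.7 to 1175 in GC, 1096 to 1177 in CC, and 1342 to 1761 after IVM. All 8 were above background on every GC and CC array and 7 of them on every matured array. The sum gives most weight to the brightest genes, and the members did not rise together. Against GC, 2 were higher in matured CC and 2 lower (median 0.05), and against immature CC, 2 were higher and 4 lower (median -1.03). The part of oocyte or blood RNA in the differences was not tested.

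For some genes CC moved from one side of GC to the other. FGFR2, a receptor for fibroblast growth factors, was at -3.03, -2.85, -0.95, and -2.88 in GC, -4.18, -4.82, -4.01, and -4.31 in CC, and 1.75, 2.74, 2.92, and 3.17 after IVM, so it was lower than GC before (-1.91) and higher after (5.07, adjusted p = 3.1e-06). PIK3CG, a PI3-kinase catalytic subunit, was above background on no CC array, with GC at least 1.10-fold higher, and was higher than GC by 4.64 after IVM. DAPP1, an adaptor of that signalling, differed by -1.94 and 3.67. In the other direction, INOS, the inducible nitric oxide synthase as named on the array, was at 6.13, 5.77, 5.93, and 6.37 in GC, 7.16, 7.07, 6.91, and 7.09 in CC, and 3.45, 2.59, 3.48, and 3.09 after IVM. MAT1A, which makes S-adenosylmethionine, went from 1.64 to -3.35, and ROR2, a WNT5A receptor, from 1.05 to -2.63.

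Of the 11 EGF-like ligands and receptors on the array, 5 were higher in matured CC than in GC and 1 was lower (median 0.53), and all 6 of these calls were with maturation, as were 81.8% of the higher and 77.5% of the lower calls over all genes. AREG, the ligand amphiregulin, was at -7.12, -7.23, -7.14, and -7.07 in GC, at -7.92, -7.40, -7.52, and -7.45 in CC, and at -2.74, -0.47, -1.35, and -1.30 after IVM. As it was above background on no GC or CC array, it was at least 11.9-fold higher than in GC (adjusted p = 3.0e-07). EREG, epiregulin, was at -3.45, -2.90, -2.49, and -0.73 after IVM, also above background on these arrays only, and at least 6.24-fold higher. HBEGF, another ligand of the family, was measured in every group and was higher by 3.59, at -4.59 to -2.84 in GC and -0.56 to 0.24 after IVM. The shedding protease ADAM17 was higher by 2.09. The receptor EGFR was at -2.37, -2.54, -3.00, and -2.69 in GC, -1.29, -1.49, -1.21, and -1.81 in CC, and -0.31, -0.90, 0.14, and 0.15 after IVM, 3 groups that did not overlap, and was higher by 1.20 before and 2.42 after IVM. Its partner ERBB2 was lower by 2.15 (difference -2.15) and was above background on 1 matured array. The call of ERBB2 was lost with normexp, where its difference from immature CC was 0.30. Over the alternative settings its difference from GC ran from -2.52 to -0.19.

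Among 16 genes of the hyaluronan matrix, 4 were higher and 1 was lower (median 0.57), with 9 higher by normexp and 7 in the deposited table. Beside HAS2, SDC4, a heparan sulfate proteoglycan of the cell surface, was at -2.93, -2.0, -2.52, and -1.57 in GC and 0.56, 1.60, 1.03, and 2.10 after IVM (3.58, adjusted p = 5.8e-06), with no difference called before IVM. VCAN, the versican that binds hyaluronan, was higher by 1.53 with overlapping arrays. HMMR, a hyaluronan receptor with a mitotic role, was lower by 1.45 (difference -1.45). PTX3, which crosslinks the matrix, was at -2.99 to 0.80 in GC and -1.70 to 0.61 after IVM, and its difference of 0.69 was not called. TNFAIP6 and the prostaglandin synthase PTGS2 were not analysed here.

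Of 13 genes of prostaglandin synthesis and reception, 3 were higher and 4 lower (median -0.03, and positive with quantile normalization, the array median, and normexp). PLA2G4A, the phospholipase that releases arachidonic acid, was lower in steps, at -0.16, -1.41, -0.31, and -1.26 in GC, -2.38, -2.28, -2.02, and -1.91 in CC, and -3.16, -3.99, -3.89, and -3.52 after IVM (-1.36 and then -2.86). PTGES2, a prostaglandin E synthase, was lower with maturation (-2.48), whereas PTGES3, another, was higher (1.09). SLCO2A1, a prostaglandin carrier, was higher by 2.49 and above background on 1 GC array. HPGD, which inactivates prostaglandins, was at -5.82, -1.18, -1.81, and -6.18 in GC and above background on no matured array, so that GC were at least 1.99-fold higher, a call lost without GC replicate 2 or 3 or CC IVM replicate 3. PTGDS, prostaglandin D synthase, was higher by 1.21 after 1.98 before IVM, and that call was lost without GC replicate 1, 2, or 3 or CC IVM replicate 3 or 4 (0.89 to 1.25).

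The immediate early transcription factors, which answer signals within minutes to hours, showed both kinds of difference. Of 25, 13 were higher than GC and 3 lower after IVM (median 1.23, and 0.57 with normexp and 0.47 in the deposited table), and 13 were higher before IVM, with 8 in common. NR4A3, an orphan nuclear receptor, was at -5.28, -5.18, -6.46, and -7.12 in GC, -4.32, -3.11, -5.33, and -3.71 in CC, and 0.22, 0.98, 0.41, and 0.16 after IVM, 1.89 and then 6.46 above GC. FOSL1 was above background on no GC array and on all 4 matured arrays, and was at least 3.91-fold higher. NR4A1 and ATF3 were higher by 2.93 and 2.36 and had been so before IVM, by 2.40 and 1.97. FOS was at 4.13, 3.42, 2.92, and 1.95 in GC, 5.05, 6.67, 5.89, and 6.31 in CC, and 3.41, 3.02, 4.12, and 3.43 after IVM, so its difference of 2.87 in immature CC was no longer called (0.39, adjusted p = 0.533). JUN, MYC, and the mRNA-decay factor ZFP36 were higher in CC before IVM (1.75, 1.10, and 1.62) and lower than GC after it (-1.65, -1.40, and -2.08).

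CREM, a cAMP-responsive modulator with many isoforms, was called higher by 3.65 as a gene, but its probes disagreed. In the 2 transcript annotations that carry the first probe, it differed by 6.51 and 6.43, from -3.74, -3.21, -3.51, and -3.22 in GC to 3.23, 3.17, 2.83, and 3.12 after IVM in one of them. The second probe differed by 0.86 and 1.31 and was above background on no GC and 2 matured arrays. PDE4B, a phosphodiesterase that breaks down cAMP, was higher by 2.99, with 5.59 and 2.87 for the probes of ENSBTAT00000054382, while those of the longer annotation were above background on no array. Of the 6263 called genes with at least 2 probe sequences, 239 (3.82%) had probes of opposite sign and 327 had probes over 2 units apart.

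Of 16 feedback genes of the ERK pathway, 3 were higher and 1 lower, against 14.6 and 13.9% of all genes, and the median was 0.29 against 0.20. DUSP6, the phosphatase of ERK, was at 3.03, 2.43, 2.15, and 1.54 in GC, 4.27, 3.70, 4.25, and 3.93 in CC, and -0.44, 1.48, 0.68, and 0.84 after IVM, higher than GC before (1.75) and lower after (-1.65, adjusted p = 0.00581). SPRY2, a Sprouty inhibitor, was higher by 1.47. DUSP5 was called higher with 1 matured and no GC array above background, so no size is given. DUSP8 was called higher by 0.97 with 2 matured arrays above background, and its brightest probe gave -0.12. The latter call was also lost without GC replicate 3 or 4 or CC IVM replicate 1 or 3 (0.79 to 0.91). Among the 4 Polo-like kinases, PLK3 was higher with PLK2, at -1.72 to -0.25 in GC and 1.99 to 2.35 after IVM (3.30), and the mitotic kinase PLK1 was lower (-2.21), a median of 1.51.

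Gonadotropin receptors and cAMP signalling showed no common direction, with 5 of 20 higher (2 to 6 over the scalings) and 5 lower (median -0.04, positive with array median, normexp, and the deposited table). LHCGR, the receptor for luteinizing hormone, was above background on 2 GC arrays and no matured array, and was not called (adjusted p = 0.292). The guanylyl cyclase NPR2, the cumulus receptor for the meiosis inhibitor CNP, was at -5.59, -5.99, -6.39, and -4.95 in GC, -3.78, -3.88, -4.17, and -4.62 in CC, and -4.37, -4.40, -4.10, and -3.84 after IVM, higher by 1.62 before and 1.55 after. Its ligand gene NPPC was not called (0.47, adjusted p = 0.124). ADCY6, an adenylyl cyclase, was higher than GC before IVM (1.14) and lower after (-2.15). NRIP1, a nuclear co-repressor needed for ovulation, was lower by 1.22 (difference -1.22). RGS2 was lower by 1.80 (difference -1.80), a call lost without any 1 of GC replicates 1 to 3 or CC IVM replicates 1, 3, and 4 (-1.74 to -1.57), and GNAS was higher by 0.76, a call lost in 16 settings, among them the omission of any GC array, of CC replicate 1, or of CC IVM replicate 2, 3, or 4 (0.67 to 0.80).

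In steroid synthesis 5 of 20 genes were higher and 4 lower (median -0.04, positive with array median and normexp). SCARB1, the receptor that takes up HDL cholesterol, was at 3.56, 3.90, 4.15, and 4.57 in GC and 5.23, 6.95, 6.10, and 6.90 after IVM (2.25, adjusted p = 3.1e-04), and CYP11A1, which cuts the cholesterol side chain, was higher by 1.74 with overlapping arrays. STAR, which brings cholesterol to that enzyme, was at -2.35 to 1.49 in GC and -2.11 to -0.66 after IVM, and its difference of -1.45 was not called. HSD17B12 was higher by 1.99, and HSD11B1, which activates cortisol, was above background on no GC array and at least 1.38-fold higher. HSD17B11 and FDXR, the reductase that feeds electrons to CYP11A1, were lower (-2.10 and -1.29), and SRD5A3 was above background on no matured array, with GC at least 1.89-fold higher.

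PGR, the progesterone receptor that ovulation requires, stood out among 16 nuclear hormone receptors, of which 2 were higher and 2 lower (median -0.26, and 0.09 with normexp). By the percentile over detected probes 5 were lower, and by the array median none. It was at -2.04, -2.29, -2.16, and -1.61 in GC, -0.78, -0.98, -0.88, and -0.97 in CC, and 3.02, 4.09, 4.31, and 4.33 after IVM, higher than GC by 1.12 before IVM and by 5.96 after it (95% CI 5.37 to 6.56, adjusted p = 2.7e-08). ESR1 was called higher with 1 matured and no GC array above background, so no size is given. THRA and PPARA were called lower by 0.82 and 0.75 (differences -0.82 and -0.75). The THRA call was lost without GC replicate 1 or 3 or CC IVM replicate 2, 3, or 4 (-0.82 to -0.62), and the PPARA call without GC replicate 1 or 2 or CC IVM replicate 2 or 4 (-0.76 to -0.63). Counting the changes of processing as well, the THRA call was lost in 10 of 30 settings and the PPARA call in 12 of 29. The PPARA difference ran from -1.47 to -0.03 over these.

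The inhibin, activin, AMH, and BMP genes were also divided, with 9 of 27 higher and 7 lower (median 0.00, from -0.20 to 0.20 over the scalings). The inhibin subunits INHBB and INHBA were higher by 2.6 and 2.10, with INHBA at 7.45, 6.45, 6.60, and 8.63 in GC and 9.46, 9.40, 9.19, and 9.49 after IVM. The BMP antagonist GREM1, which the oocyte induces in CC, was at -4.15 to -2.61 in GC and -1.53 to -0.40 after IVM (2.49), and the receptor TGFBR2 was higher by 2.44. BMPR1B, a receptor of BMP15 and of other BMPs, was at 0.02, -0.06, 0.57, and -0.23 in GC, -2.38, -3.46, -2.69, and -2.71 in CC, and -4.02, -3.65, -3.78, and -3.03 after IVM, lower by 2.88 before and by 3.69 after IVM (differences -2.88 and -3.69). TGFBR3, the inhibin co-receptor, was lower in both as well (-1.45 and -2.54). AMHR2 was above background on no matured array, with GC at least 2.41-fold higher, and its ligand AMH was higher in CC than in GC before IVM only (1.28 and then 0.25, adjusted p = 0.592).

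Of 16 transcription factors of follicle cell identity, 10 were lower after IVM and 2 higher (median -1.40). With normexp 6 were lower (median -0.21) and 7 in the deposited table (-0.64). Of the 10, 9 were also lower than in immature CC. NR5A2, which drives steroidogenic genes, was at 1.06, 0.02, 0.79, and 1.33 in GC, 1.07, 1.60, 1.34, and 1.66 in CC, and -1.64, -2.62, -1.20, and -1.54 after IVM (-2.55, adjusted p = 8.0e-05). FOXL2, which maintains granulosa fate, was above background on no matured array, with GC at least 2.32-fold higher, and NR0B1 likewise with at least 1.64-fold. GATA4 was higher than GC before IVM (1.25) and lower after (-1.46), whereas GATA6 was higher with maturation, at -0.23 to 0.84 in GC and 1.36 to 2.86 after IVM (1.97). RUNX1, a factor induced by the ovulatory surge, was higher by 1.81.

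**Figure D4:**
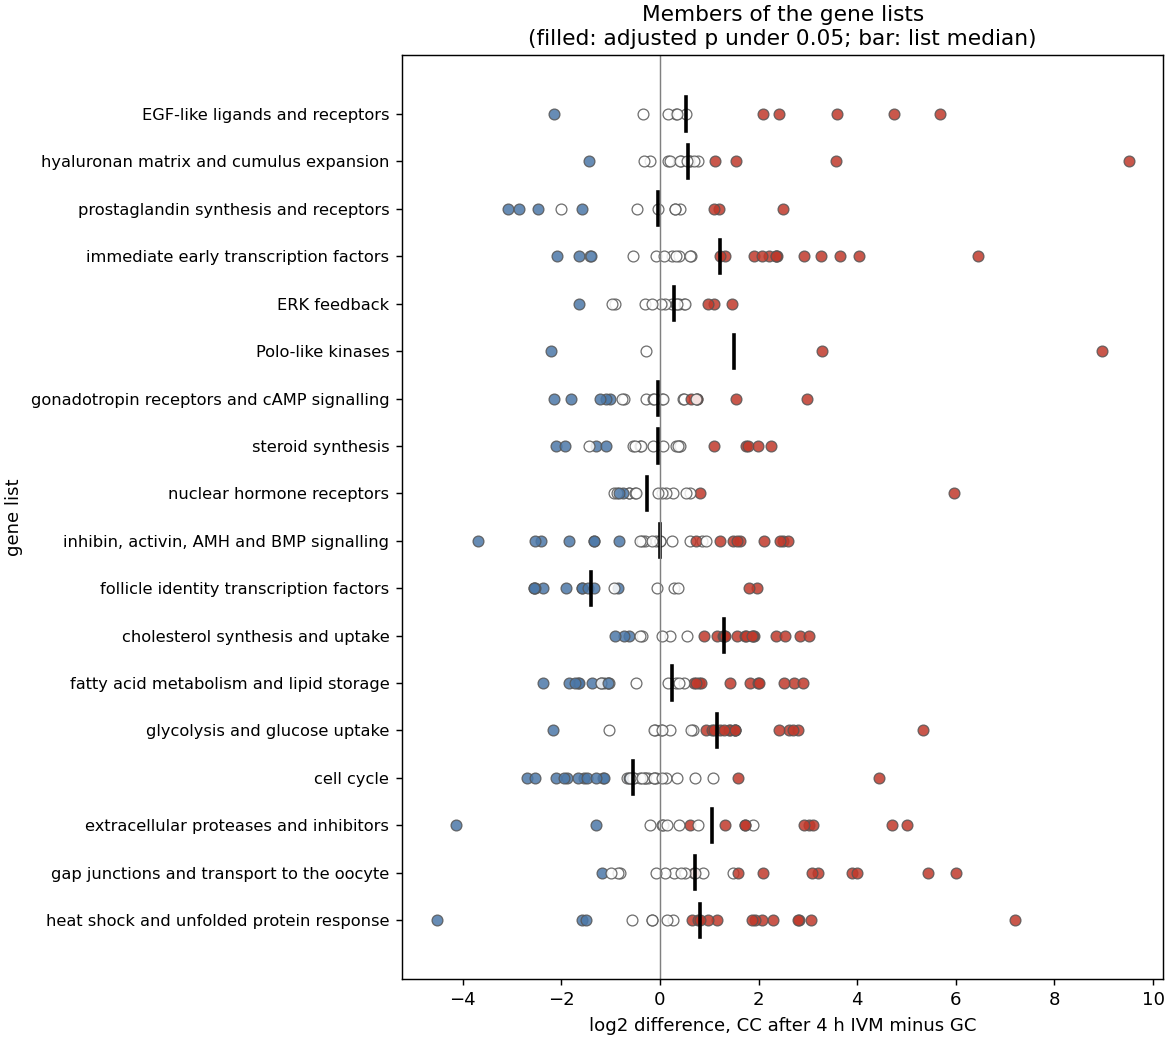
Difference of each gene between CC after IVM and GC (horizontal axis, log2) for the 18 gene lists, with filled points for genes called by limma at an adjusted p under 0.05 and a bar for the list median. The list medians run from -1.40 for the follicle identity factors to 1.51 for the 4 Polo-like kinases.

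Of 24 genes of cholesterol synthesis and uptake, 16 were higher and 3 lower (median 1.30), 11 of the 16 with maturation and 4 already before. CYP51A1, a demethylase of the pathway, was at 0.34, 0.14, -0.23, and 1.11 in GC, 1.09, 1.27, 0.78, and 1.18 in CC, and 3.29, 2.99, 2.94, and 3.54 after IVM. It was higher than in GC by 2.85 and SREBF2, its regulator, by 2.54. The 3 lower genes, FDFT1, LSS, and TM7SF2, differed by -0.63, -0.73, and -0.92 only. The call of LSS was lost without GC replicate 3 or 4 (-0.69 and -0.58), that of FDFT1 in 15 settings and that of TM7SF2 in 20. FDFT1 kept its call only without GC replicate 2, CC replicate 1, or CC IVM replicate 1 or 2 among the omissions of 1 array (-0.67 to -0.47 for the others). TM7SF2 kept it only without GC replicate 4 or CC IVM replicate 1 or 3 (-1.0 to -0.63 for the others).

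In fatty acid metabolism 11 of 28 genes were higher and 10 lower (median 0.25). The balance turned to 7 and 10 with the percentile over detected probes (0.05), 7 and 9 with quantile normalization (0.04), and 8 and 11 in the deposited table (0.10). FABP5, a fatty acid carrier, ACSL4, which activates arachidonic acid, and PLIN2, which coats lipid droplets, were higher with maturation, by 2.89, 2.72, and 2.52. PLIN2 was at 1.06, 1.11, 1.30, and 2.49 in GC, -0.25, -0.07, 0.51, and 0.64 in CC, and 4.29, 3.73, 3.96, and 4.06 after IVM, and was lower than GC before IVM (-1.28). CD36, a fatty acid receptor, CPT2, of mitochondrial import, and PNPLA2, the triglyceride lipase, were lower (-2.38, -1.85, and -1.73), CPT2 at 1.90 to 2.10 in GC and -0.13 to 0.63 after IVM.

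In glycolysis the difference from GC was already called in immature CC. Of 24 genes, 18 were higher in immature CC than in GC and 15 after IVM, all 15 already before. Of these 15, 2 were also higher than in immature CC. Over the whole list, 4 genes were higher after IVM than in immature CC and 7 lower, against 31.7 and 16.2% of all genes. The median was 1.27 before and 1.17 after IVM, against -0.16 and 0.20 over all genes. LDHA, which makes lactate, was at 3.43, 3.57, 3.09, and 4.61 in GC, 5.93, 6.45, 6.19, and 6.34 in CC, and 7.02, 5.67, 6.46, and 6.07 after IVM (2.55 and 2.63). PFKFB3, an activator of glycolysis, differed by 2.48 and 2.80, and ENO1 by 1.23 and 1.52. The 2 genes of the 15 that were also called higher than in immature CC were HK2, the hexokinase of the first step, and the glucose transporter SLC2A1. HK2 was at -0.40, -0.10, -1.18, and -0.61 in GC, 1.72, 2.13, 1.65, and 1.72 in CC, and 4.58, 4.37, 5.08, and 4.98 after IVM, higher than GC by 2.38 and then 5.33 (adjusted p = 1.6e-04 and 3.0e-08), and SLC2A1 by 0.91 and then 2.41. PFKM, the muscle phosphofructokinase, was the 1 gene lower with maturation (-2.17).

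**Figure D5:**
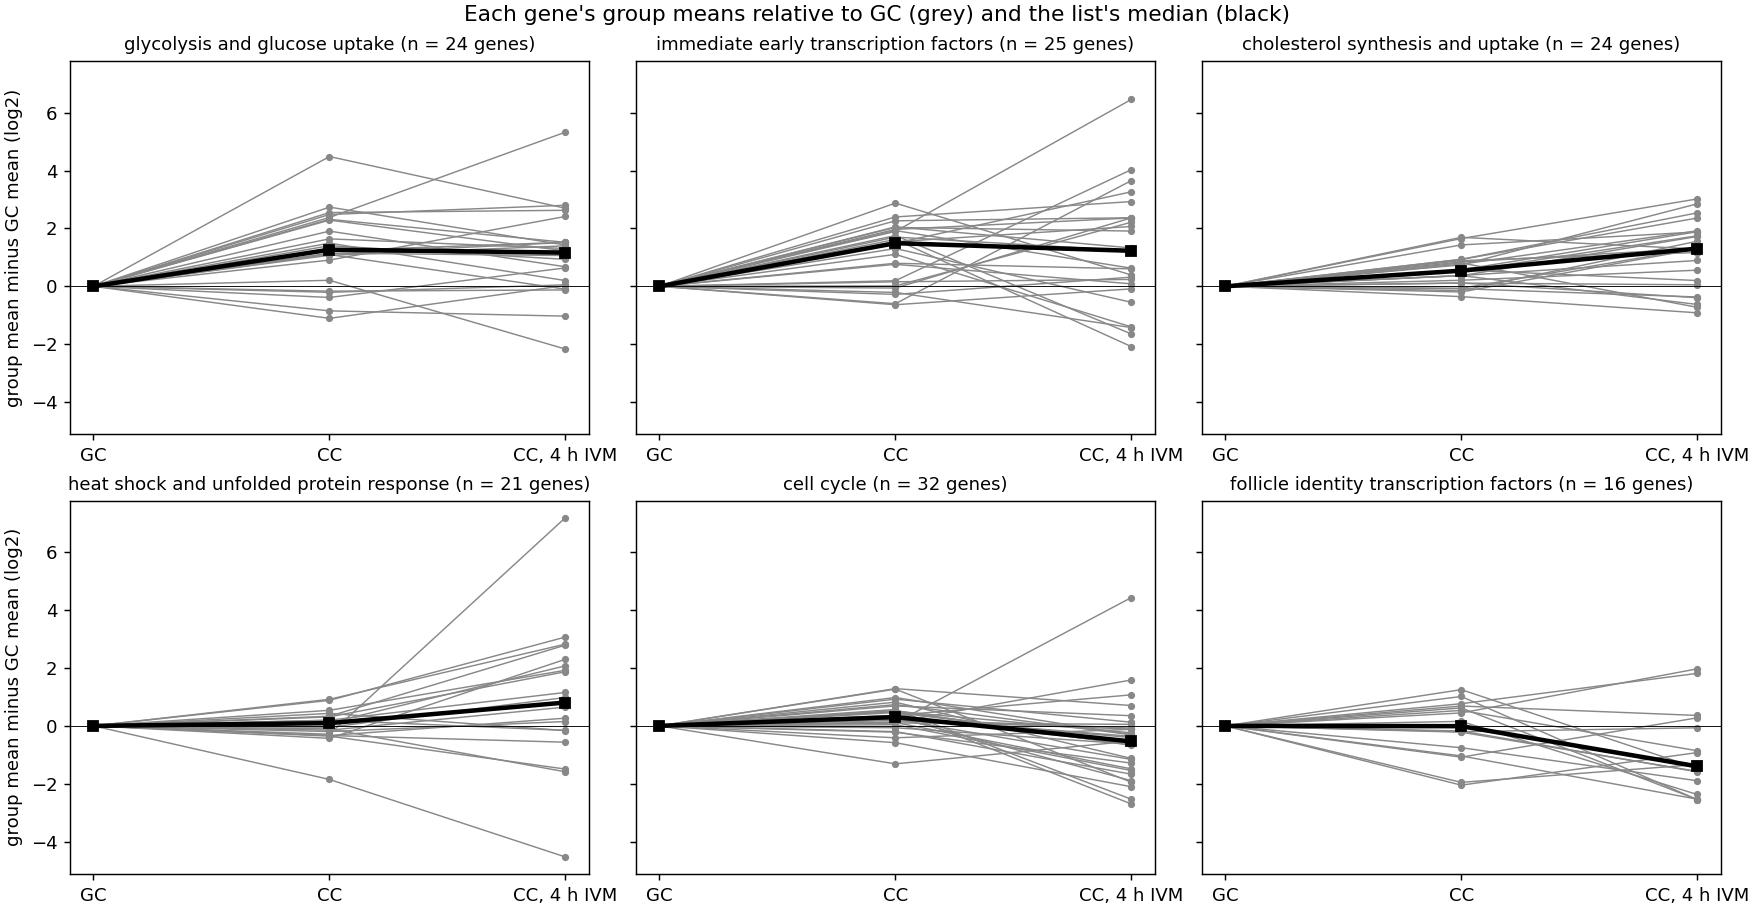
Group mean of each gene minus its mean in GC (grey lines, log2) for GC, CC, and CC after IVM in 6 lists, with the list median in black. The glycolysis median is at 1.27 in CC and 1.17 after IVM, while that of the heat shock and unfolded protein response is at 0.10 in CC and 0.81 after IVM.

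Of 32 cell cycle genes, 12 were lower and 2 higher (median -0.54), and 9 and 3 with normexp (-0.10). All 14 calls were with maturation, beside 77.5 and 81.8% of the lower and higher calls over all genes. CDKN1A, the inhibitor p21, was at 0.74, 1.58, 1.12, and 1.48 in GC and 0.95, 1.69, 1.06, and 1.65 in CC, which overlapped, and at 5.18, 5.99, 5.54, and 5.94 after IVM (4.43, adjusted p = 1.8e-07). MCM3 and MCM5, subunits of the replication helicase, were lower by 2.70 and 2.53 (differences -2.70 and -2.53), and CCND3, a G1 cyclin, by 2.10 (-2.10). MCM5 was at 3.11, 2.72, 2.65, and 4.33 in GC and 1.06, 0.16, 1.04, and 0.42 after IVM. RRM2, which makes deoxynucleotides, was higher by 1.59, and MKI67, a proliferation marker, was not called (-0.61).

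Of 18 extracellular proteases and inhibitors, 9 were higher and 2 lower (median 1.05), 7 of the 9 with maturation. MMP9, a gelatinase, was at -2.47, -2.57, -2.13, and -1.89 in GC and 1.69, 4.34, 2.05, and 2.90 after IVM (5.01). ADAMTS1, the versicanase of the ovulating follicle, was at -0.03, 1.64, 1.45, and 0.94 in GC, 0.08, -0.38, 0.40, and 0.70 in CC, and 4.96, 6.32, 5.78, and 5.78 after IVM (4.71, adjusted p = 1.9e-06). PLAUR, the urokinase receptor, was spread in GC, at -1.73, -0.24, 2.42, and 2.87, and its difference of 3.1 lost its call without GC replicate 1 or 2 or CC IVM replicate 2 or 4 (2.24 to 3.05). The 2 lower genes, MMP2 (-4.13) and MMP11 (-1.30), were already lower in immature CC (-3.29 and -1.27).

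Of 21 genes of gap junctions and transport towards the oocyte, 9 were higher and 1 lower (median 0.72), 8 of the 9 with maturation. SLC6A9, the glycine carrier, was at -4.65, -4.55, -4.87, and -4.12 in GC and 0.04, 1.79, 1.43, and 2.57 after IVM (6.01), SLC1A4, a carrier of neutral amino acids, at -1.92 to -0.09 and 3.36 to 4.85 (5.43), and SLC3A2, a subunit of amino acid exchangers, was higher by 3.99. SLC1A1, a glutamate and aspartate carrier, was the one that was there before: it was above background on no GC array and on all CC and matured arrays, at least 3.69-fold and 3.64-fold higher than in GC. GJA1, the main connexin between GC, was higher by 0.70 with overlapping arrays, and KIT was lower by 1.18 (difference -1.18).

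Of 21 heat shock and unfolded protein response genes, 13 were higher and 3 lower than GC (median 0.81, and 0.36 with quantile normalization, where 9 were higher), and HSPA1A was the 1 gene called in immature CC. DDIT3, the stress factor CHOP, was at 1.25, 0.98, 1.15, and 0.76 in GC and 5.15, 3.34, 3.94, and 3.99 after IVM (3.07), and HSP90B1, the chaperone of the endoplasmic reticulum, at 5.95, 5.68, 5.87, and 6.80 and 8.54, 9.14, 8.40, and 9.53 (2.82, adjusted p = 1.5e-05). The cytosolic chaperone HSPA1A went the other way, at 3.05, 3.28, 2.81, and 3.00 in GC, 1.17, 1.49, 1.21, and 0.87 in CC, and -1.83, -1.48, -0.23, and -2.44 after IVM (-1.85 and then -4.53). HMOX1, haem oxygenase, was lower by 1.59 (difference -1.59), and HSPA1L was called lower with no matured array above background, a call lost in 4 alternative settings, normexp and the deposited table among them.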

How the data were processed

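The 12 arrays of GC, CC, and CC after IVM were grouped by their titles. For each array the authors deposited the output of Agilent Feature Extraction 10.7.3.1 (version from the submitters' processing notes), with the raw and the processed intensity of every spot, background-subtracted but not normalized between arrays. They also deposited a table of log2 values, which equals log2 of the median spot signal minus the array median within 5e-09. How that table was made is not given otherwise in the sources used here.

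Control spots and outlier spots (at most 23 per array) were left out, and no spot was saturated (0 on each array). The 75th percentile of log2 processed intensity over the 61325 probes was subtracted within an array, and spots were joined by their median under the gene name without its numeric suffix. Of 9779 probes without a gene name, 734 were named by accession in a RefSeq gene table, which gave 22550 genes or transcripts. The 12 arrays were fitted together with limma 3.58.1 (lmFit, eBayes) in R 4.3.3. The p-values of all genes were adjusted together by the Benjamini–Hochberg method (threshold 0.05). The fit was tested on simulated data. Python 3.11.15 (pandas 2.3.3, matplotlib 3.10.9) served for tables and figures. A gene was counted as above background on an array when any of its spots was marked well above background. "Higher with maturation" means called higher than both GC and immature CC, and "already" means called the same way between immature CC and GC. A gene above background on no array of the dimmer group was given a bound, which sets the brighter group's mean against, per dim array, the higher of its measured value and the lowest signal well above background. The number of arrays limits the precision.

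The members, the 18 gene lists, and the marker lists were chosen with earlier results of these data known. The genes named were the 4 proposed markers. To these came the 8 largest differences each way between CC after IVM and GC, and the 6 each way between CC after IVM and CC and between CC and GC. Up to 3 genes each way that crossed from one side of GC to the other, and up to 3 per list and direction, completed them. The ranked genes had to be called, to have a symbol, and to be above background on at least 3 arrays of both groups, and the 8 and 8 also not to overlap. The 6 and 6 between CC after IVM and CC were drawn from genes that met these conditions between CC after IVM and GC. Other list members named with values (ADAM17, EGFR, PTX3, ATF3, NR4A1, FOS, LHCGR, NPPC, CYP11A1, STAR, INHBA, AMH, GATA4, LDHA, ENO1, SLC2A1, SLC1A1, GJA1, and MKI67) were chosen after their values were seen, for their known roles. Some genes that the rule named are not reported here.

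The alternatives were quantile normalization, normexp (offset 50), the array median, the percentile taken over probes above background on all arrays, the deposited table, the mean over spots, the brightest probe, a filter on dim genes, pairwise fits, all 20 arrays in 1 fit, the replicate number and the slide as blocks, array weights, eBayes with trend, the methods' analysis of variance with Tukey's test, and the omission of each array.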

Additional observations from a re-analysis of the deposited data

Results flagged for a closer look

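For 166 genes of the text and the marker lists, each group of 4 arrays was searched for a single array far from the others by Dixon's ratio of gap to range. Of 498 groups, 34 (6.83%) held one, and chance flags about 1 in 20 groups. On GC replicate 2, INHA at 7.91 and SRD5A3 at -4.81 lay far below the 3 other arrays of the group. On GC replicate 2, SPRY2 at 0.86 lay far above the 3 other arrays of the group. On GC replicate 3, FOXL2 at -4.01 lay far below the 3 other arrays of the group. On GC replicate 3, FGFR2 at -0.95 lay far above the 3 other arrays of the group. On GC replicate 4, FGF2 at -4.69, MAT1A at -2.84, MYC at 2.70, RGS2 at -1.31, and RPRM at 2.07 lay far below the 3 other arrays of the group. On GC replicate 4, FDXR at 2.44, MCM3 at 2.71, and PLIN2 at 2.49 lay far above the 3 other arrays of the group. On CC replicate 1, CCDC8 at 2.88 and CDH5 at -7.92 lay far below the 3 other arrays of the group. On CC replicate 1, CYP17A1 at -6.30 lay far above the 3 other arrays of the group. On CC replicate 2, PRKAG3 at 0.30 lay far below the 3 other arrays of the group. On CC replicate 2, HK2 at 2.13, HSD17B1 at 6.81, and PTGES3 at 4.00 lay far above the 3 other arrays of the group. On CC replicate 3, HPGD at -6.68 lay far above the 3 other arrays of the group. On CC replicate 4, SCARB1 at 4.85 lay far above the 3 other arrays of the group. On CC IVM replicate 1, CD3E at -3.76 and RPRM at -1.32 lay far above the 3 other arrays of the group. On CC IVM replicate 2, AMHR2 at -6.75, HMMR at -5.95, and SREBF2 at -3.46 lay far below the 3 other arrays of the group. On CC IVM replicate 2, LUM at 3.07 lay far above the 3 other arrays of the group. On CC IVM replicate 3, CDH5 at -7.31, CYP17A1 at -7.08, and PTPRC at -7.03 lay far below the 3 other arrays of the group. On CC IVM replicate 3, FOXL2 at -5.56 and PNPLA2 at -1.66 lay far above the 3 other arrays of the group. On CC IVM replicate 4, ERBB2 at -6.17 lay far below the 3 other arrays of the group. GC replicate 4 accounted for the largest number of these. The cause was not tested.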

How the results depend on the processing

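Over 30 alternative settings, the 332 differences of 166 genes gave 9832 values. Of these, 9241 kept their side of the threshold, 486 lost the call, and 91 gained one. A further 14 changed sign with a call in the main fit or in the setting. Differences called in neither were counted as kept whatever their sign, and CYP19A1 against GC ran from -0.64 to 0.65. Of 262 called differences, 180 were called in every setting. Among those 14, the sign changed with normexp for DAZL against GC (0.089). Against CC it changed with normexp for BMP15 (0.32), ERBB2 (0.30), HSPA1L (0.31), MMP11 (0.42), NPR2 (0.45), NR0B1 (0.34), TEK (0.12), and TGFBR3 (0.020). With the brightest probe it changed for DUSP8 (-0.12 against GC and -0.22 against CC) and FSHR (0.48 and 0.065), and with quantile normalization for INHA against CC (-0.17). Normexp raised the higher genes to 6535 and those higher with maturation to 6008. For genes already higher or lower in CC, array weights gave 621 and 705 and the methods' analysis of variance with Tukey's test 140 and 109.

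With the replicate block, 3087 genes were higher, 2995 lower, 2498 and 2285 with maturation, and 333 and 314 already before, and none of these 6 counts moved by over 1.5 times. Of the 332 differences it ended 4 calls (FDFT1 and TM7SF2 against GC, CD14 and EXOC3L4 against CC) and added 1 (ACTA1 against CC). Same-numbered arrays of CC after IVM and GC correlated at -0.22 to 0.31 in their deviations, and those of CC after IVM and CC at -0.23 to -0.04. Those of CC and GC correlated at 0.166, 0.004, 0.199, and 0.205. Of these, only replicates 3 and 4 exceeded the highest correlation with another number. The numbers were not taken to pair the arrays, and the counts with the replicate block are given above. Leaving out 1 array gave 2643 to 3861 higher genes, 2706 to 3127 lower, 2203 to 3293 and 2085 to 2411 with maturation, and 236 to 442 and 206 to 460 already before. The last were 236 and 206 without GC replicate 3, and 206 without CC replicate 2. With the slide as a random block (correlation -0.10) 4177 genes were higher and 3658 lower. This block cannot adjust the matured group for its slide, since slide 3 held that group alone, so the counts say nothing on the slide.

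Chosen after seeing the data, the fits with GC and CC arrays of slide 1 only gave 1727 higher, 1893 lower, 1270 and 1227 with maturation, and 70 and 124 already before. With slide 2 only they gave 1785, 1909, 1297, 1320, 89, and 60. No fit with the slide as a fixed block was possible for the matured arrays, since they were alone on slide 3. In a further fit so chosen, of the genes above background on all 12 arrays, 2493 were higher and 2541 lower. Signal over background limits the genes of which 1 group lay at background, such as AREG and FOXL2, to bounds.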
